A study of Rattus norvegicus with 2 samples.

Results

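The cells described here were selected by a gene rule meant to pick CD3-negative natural killer (NK) cells from dissociated rat meniscus, the fibrocartilage of the knee. A barcode was kept if it had at least 500 genes and at most 20% of its unique molecular identifiers (UMIs, counted RNA molecules) in mitochondrial genes. It was a member if Nkg7 and Klrd1 together had at least 3 UMIs, Cd3e, Cd3d and Cd3g together fewer than 2, and Lyz2 fewer than 10. The rule selected 161 of 14858 kept cells, which came from 18336 barcodes. These were 70 of 6085 kept cells in the library of aged rats (1.15%, exact 95% interval 0.898 to 1.45%) and 91 of 8773 in the library of young rats (1.04%, 0.836 to 1.27%), so the intervals of the shares overlap. There was 1 library per age, so age and library cannot be told apart and no difference was tested. Each interval covers counting error only. The labels give the tissue and the words aged and young. Strain, sex, age in weeks and the number of rats pooled per library were not stated there. Cells were released by protease and collagenase P, sorted for viability and captured with 10x Genomics 3′ chemistry.

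NK cells are lymphocytes that kill by releasing granules holding perforin (Prf1) and granzymes. They read target cells through lectin-like receptors of the Klr family, such as Klrd1 (CD94), Klre1 and Klrb1b, and signal through adaptors such as Tyrobp and Fcer1g. Nkg7 encodes a granule membrane protein and is used as an NK and cytotoxic T cell marker. Immature neutrophils store elastase (Elane), myeloperoxidase (Mpo), proteinase 3 (Prtn3) and cathepsin G (Ctsg) in azurophil granules. Basophils and mast cells carry the IgE receptor (Fcer1a, Ms4a2, Fcer1g), histidine decarboxylase (Hdc) and their own proteases.

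The named cell type did not hold for most members. Nkg7 was read in 70 of 70 aged and 90 of 91 young members. Klrd1, the other gene of the rule, was read in only 5 of 70 and 25 of 91. Klre1 was read in 3 aged and 23 young members, Klrb1b in 12 and 25, and the NK receptor Ncr1 in 1 and 9. By contrast Mcpt8l3, a protease of the mast cell protease 8 family, was read in 57 of 70 aged and 56 of 91 young members, and the eosinophil and basophil granule protein gene Prg2 in 24 and 28. With every cell thinned to 1000 UMIs, Mcpt8l3 was read in 50% and 47.3% of members and Elane in 37.1% and 23.1%. In thinned B cells (3 or more UMIs of Cd79a and Cd79b) the shares were 1.22% and 0.806% for Mcpt8l3 and 0.118% and 0.543% for Elane. The cells are therefore called by their rule and their leading genes below, and "members" means all 161.

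Sorted by their leading genes, the members fell into 4 sets, which were defined after the values had been seen. Receptor-bearing cells had a UMI of at least 2 of the 18 listed NK receptor and lineage genes found in the files. Of the others, azurophil-rich cells had at least 2% of their UMIs in Elane, Mpo, Prtn3, Ctsg and Defa5, and Mcpt8l/Prg2-rich cells had at least 2% in Mcpt8l3, Mcpt8l2 and Prg2. The aged library held 6 receptor-bearing, 21 azurophil-rich, 22 Mcpt8l/Prg2-rich and 21 remaining cells. The young library held 25, 21, 21 and 24. As a share of members, receptor-bearing cells were 8.57% in the aged library (exact 95% interval 3.21 to 17.7%) and 27.5% in the young (18.6 to 37.8%), and these intervals do not overlap. As a share of kept cells they were 0.0986% (0.0362 to 0.214%) and 0.285% (0.184 to 0.420%), intervals that do overlap. Each of the other 3 sets lay between 23.1% and 31.4% of the members in both libraries.

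**Figure D1:**
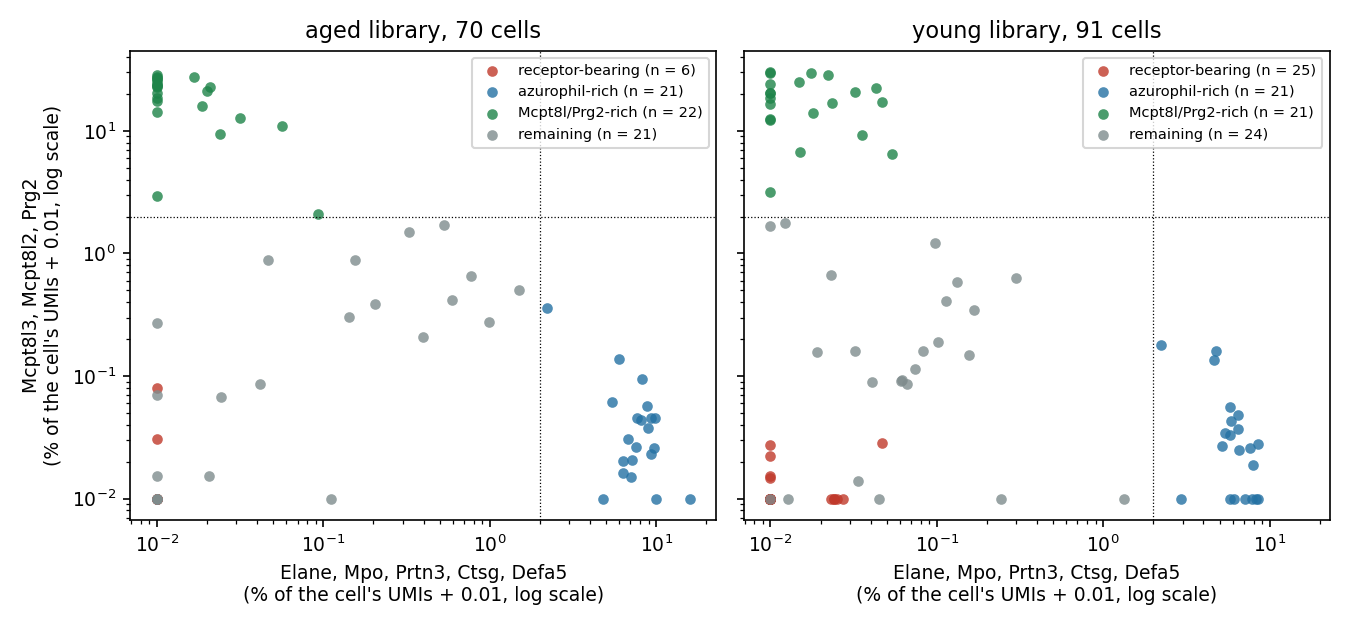
Each point is 1 member, with the share of its UMIs in the azurophil genes on the x axis and in Mcpt8l3, Mcpt8l2 and Prg2 on the y axis (both log scales, 0.01 added), for the aged (left) and young (right) library. Dotted lines mark the 2% used to form the sets. No member lay above 2% on both axes.

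The granule sets stood well apart. Azurophil-rich cells had a median of 7.67% of their UMIs in the 5 azurophil genes in the aged library and 6.12% in the young. Mcpt8l/Prg2-rich cells had a median of 22% and 18.6% in their 3 genes. Only 2 aged and 3 young members had between 1% and 4% of their UMIs in the azurophil genes, and 4 and 4 in the Mcpt8l3, Mcpt8l2 and Prg2 genes, so few cells lay near the boundaries. These values follow from how the sets were formed and are given as a description.

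Members were deep. Their median was 16556.5 UMIs in the aged library and 13482 in the young, against 3686 and 3846 over all kept cells. A floor of 3 UMIs is reached more easily in a deep cell, and the part of depth in the membership was not tested. The remaining cells combined depth with little Nkg7: their median depth was 18803 UMIs (aged) and 28508 (young), and their median Nkg7 count was 5 and 4. Azurophil-rich cells had a median of 78 (aged, range 5 to 190) and 62 (young, 3 to 109) Nkg7 UMIs. Mcpt8l/Prg2-rich cells had 12.5 (3 to 30) and 13 (3 to 40), and receptor-bearing cells 12.5 (2 to 72) and 23 (0 to 56). By raw UMIs, Nkg7 was thus highest in the azurophil-rich cells of both libraries, with overlap between all 4 sets. Scaled to 1000000 UMIs per cell, its median was 3837 in azurophil-rich and 1727 in receptor-bearing cells of the aged library. In the young library these medians were 3600 and 3173, much closer together than by raw UMIs. Mcpt8l/Prg2-rich cells were at 1155 (aged) and 1203 (young), and remaining cells at 387 and 156. In B cells Nkg7 was read in 1.14% (aged) and 2.28% (young), with a median count of 0.

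**Figure D2:**
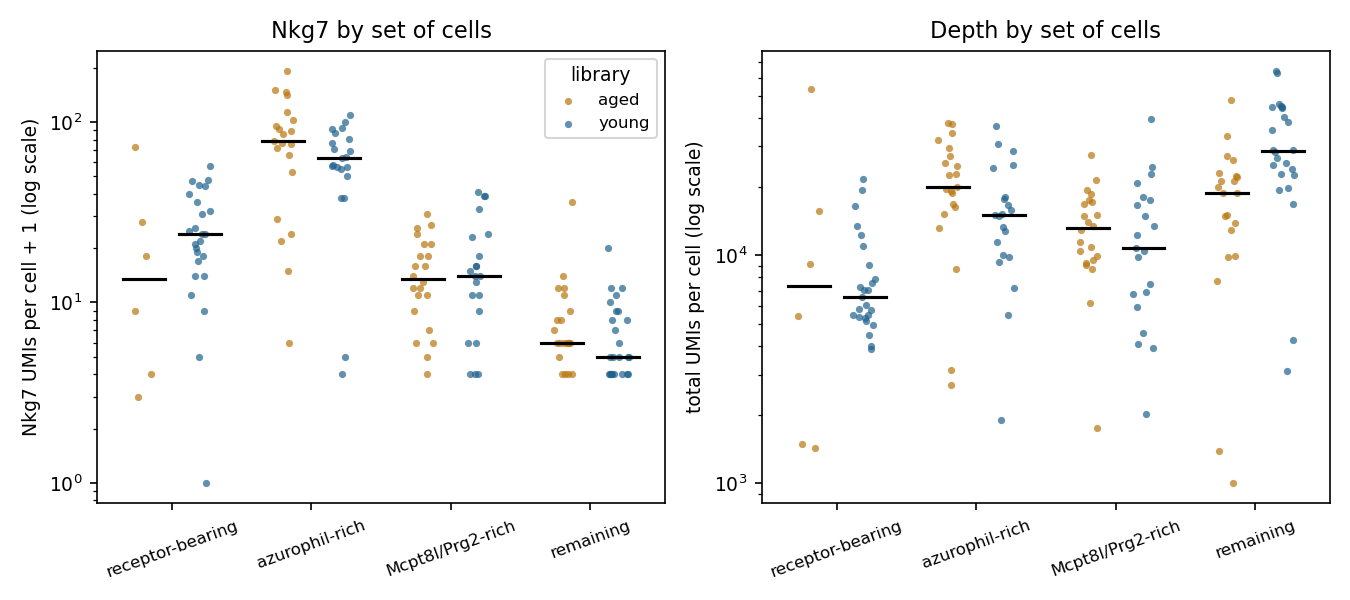
Nkg7 UMIs per cell with 1 added (left) and total UMIs per cell (right), both on log scales, by set and library. Points are cells, colored by library as keyed at the left, and bars are medians. By raw UMIs, azurophil-rich cells hold the most Nkg7, with medians of 78 and 62, and the remaining cells sit near the threshold, with medians of 5 and 4.

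Moving the thresholds shows what lay on their other side. With Nkg7 and Klrd1 summing to exactly 3, the rule kept 6 aged and 12 young cells, of which 1 and 0 were receptor-bearing. With a sum of 2, it left out 10 and 16, of which 0 and 0 had 2 or more receptor genes. The Lyz2 limit left out 153 aged and 142 young cells that met the other conditions, more than it kept, and 54 and 61 of these had at least 2% of UMIs in the azurophil genes. The CD3 limit left out 58 and 53 cells, of which 52 and 52 had 2 or more receptor genes.

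The upstream sequences of 4 leading genes are shown because 2 of them, Mcpt8l3 and Mcpt8l2, are near-copies of each other. Each is the 250 bases before the gene's start, 5′ to 3′ on the gene's strand, from RefSeq on build GRCr8, which is not known to be the build the authors used. The windows are chr1:102981247-102981496 (plus strand) for Nkg7, chr15:33673014-33673263 (plus) for Mcpt8l3, chr15:33718231-33718480 (plus) for Mcpt8l2 and chr7:10476197-10476446 (minus) for Prtn3. Capitals mark a match, on either strand, to a motif searched. The GATA motif was searched as AGATAA. The C/EBP motif was searched as TTNNGCAA. The RUNX motif was searched as TGTGGT, the PU.1 motif was searched as GAGGAAG, and the T-box motif was searched as GGTGTGA. No matches overlapped.
Nkg7: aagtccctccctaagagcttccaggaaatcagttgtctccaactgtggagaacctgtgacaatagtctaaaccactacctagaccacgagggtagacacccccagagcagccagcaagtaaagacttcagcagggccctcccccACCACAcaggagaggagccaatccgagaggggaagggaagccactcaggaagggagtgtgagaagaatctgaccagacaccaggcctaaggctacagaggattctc
Mcpt8l3: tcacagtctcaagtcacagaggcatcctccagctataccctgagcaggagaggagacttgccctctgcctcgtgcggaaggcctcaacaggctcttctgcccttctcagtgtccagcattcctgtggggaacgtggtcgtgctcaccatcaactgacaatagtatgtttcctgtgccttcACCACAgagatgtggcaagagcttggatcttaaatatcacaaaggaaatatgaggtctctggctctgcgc
Mcpt8l2: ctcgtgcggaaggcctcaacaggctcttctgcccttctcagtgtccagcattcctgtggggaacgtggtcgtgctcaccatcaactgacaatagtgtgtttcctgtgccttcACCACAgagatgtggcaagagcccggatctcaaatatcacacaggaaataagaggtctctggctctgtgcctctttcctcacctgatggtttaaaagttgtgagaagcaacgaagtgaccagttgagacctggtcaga
Prtn3: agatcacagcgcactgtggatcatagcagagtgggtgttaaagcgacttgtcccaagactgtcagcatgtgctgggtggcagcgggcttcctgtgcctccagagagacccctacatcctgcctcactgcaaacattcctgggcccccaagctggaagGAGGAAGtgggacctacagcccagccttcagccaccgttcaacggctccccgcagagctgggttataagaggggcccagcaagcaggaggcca
Nkg7, Mcpt8l3 and Mcpt8l2 each held 1 RUNX match, on the reverse strand, and Prtn3 held 1 PU.1 match. None of the 4 held a GATA, C/EBP or T-box match. Of 33469 rat promoter windows of the same length, 14.5% held the RUNX letters, 10.2% the PU.1 letters, 10.3% the GATA letters, 9.22% the C/EBP letters and 3.22% the T-box letters. Shifted by 68 bases, the Mcpt8l3 and Mcpt8l2 windows were the same at 175 of 182 bases (96.2%). Transcripts of such near-copies may share reads, so counts of single Mcpt8l and Mcpt1 family genes are uncertain.

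The receptor-bearing cells were picked for their receptor and lineage genes, so the values of Klrd1, Klrb1b, Klre1, Il2rb, Ncr1 and Eomes in them restate that choice and are given as a description. The effector and adaptor genes were not used to form the set. In the young library all 25 had Klrd1 (1 to 13 UMIs per cell, median 5) and Klrb1b (2 to 24, median 14). Klre1 was read in 23 of 25, Il2rb, the interleukin 2 and 15 receptor chain, in 24, and Ncr1 in 9. Among effectors, the granzyme gene Gzmm was read in 25 (5 to 72 UMIs, median 33), Gzmk in 23 (0 to 43, median 13), Prf1 in 21 (0 to 41, median 5) and the chemokine Ccl5 in 22 (0 to 320, median 84). Both signalling adaptors were in every cell: Tyrobp at 12 to 139 UMIs and Fcer1g at 1 to 29. Tbx21, the T-bet transcription factor, was read in 18 of 25, and Eomes, its relative, in 3.

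The 6 aged receptor-bearing cells were less uniform. Only 3 of them had 3 or more receptor genes, with 8, 8 and 6 such genes in 15668, 9185 and 5408 UMIs. Among these, the cell with 9185 UMIs had 72 Nkg7, 62 Gzmm, 30 Prf1 and 246 Ccl5 UMIs. The cell with 15668 UMIs had 17 Nkg7 and 12 Gzmm UMIs but 0 of Prf1 and Ccl5. Another cell, with 53413 UMIs, held 2 receptor genes, 519 UMIs of cell cycle genes and 3 of the B cell genes Cd79a and Cd79b. The last 2 cells had 1487 and 1423 UMIs and 2 receptor genes each. Of the 6 aged cells, 3 carried 1 CD3 UMI, against 1 of 25 in the young library. When at least 5 receptor genes were asked for, 3 aged and all 25 young cells were left.

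The young receptor-bearing cells had the lowest median depth of the 4 young sets, 6591 UMIs. Thinned to 1000 UMIs in 1 random draw, Klrb1b was read in 22 of 25 (88.0%), Ccl5 in 22 and Gzmm in 24. A separate draw over all 91 young members read Klrb1b in 15 cells, Ccl5 in 22 and Gzmm in 25. All young Klrb1b counts lay in the receptor-bearing cells, so both draws thinned the same counts. The 22 and 15 cells thus show how far single random draws can differ, and the share of 88.0% rests on 1 of them. In thinned B cells of the young library the shares were 0.186% for Klrb1b, 0.0930% for Ccl5 and 5.91% for Gzmm, with an unthinned median of 3683 UMIs per cell. Mcpt8l3, Prg2 and Elane were read in 0 of the 25 thinned cells, which allows a share of up to 12% of cells with a UMI at a floor of 3 cells (exact 95% limit 13.7%).

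The young receptor-bearing cells could be set against the 53 young CD3-positive cells (CD3 sum 2 or more) that also had an Nkg7 and Klrd1 sum of at least 3, of which 45 had Cd8a. The sets share that floor and are not matched on Nkg7, whose median was 23 UMIs against 4. The comparison was added after the values had been seen, and the receptor genes and CD3 helped to choose the cells. Of 3740 genes with at least 20 summed counts, 8.61% were at least 2-fold higher in the receptor-bearing cells and 6.44% at least 2-fold lower. The list of cytotoxic granule genes had 8 of 15 measured genes higher and 0 lower, with a median log2 ratio of 1.25 against 0.13 over all genes. The 8 include Gzma and Gzmbl2, which had 0 counts in the CD3-positive cells and could only come out higher. Levels below are summed counts scaled to a total of 1000000 (CPM).

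Among granule genes, Prf1 was at 976 CPM against 57.5, a log2 ratio of 4.09 (95% interval 3.51 to 4.71). Gzmk was at 2139.59 CPM against 36.9, a log2 ratio of 5.86 (5.18 to 6.62). Gzma had 82 counts and Gzmbl2 85, both against 0, so they were at least 64.0-fold and 66.4-fold higher when the zero is set at the floor of 3 counts over the group. Both passed the count filter only through the receptor-bearing cells, so they could only come out higher and these bounds are a description. Gzma was read in 6 of these cells, with 47.6% of its counts in 1, and Gzmbl2 in 11, with 31.8% in 1. Ctsw, cathepsin W, did not differ by this measure, with a log2 ratio of -0.08 (-0.34 to 0.17). Of the chemokines, Ccl5 was 11.7-fold higher, Ccl4 3.34-fold and Xcl1 2.63-fold. Of the granule genes with counts in both sets named here, Ctsw thus lay near 0, and Gzmk lay above Prf1. Gzmm, another granzyme gene, was not among the 10 largest ratios.

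Receptors split in both directions. The list of C-type lectin receptors had 7 of 15 measured genes at least 2-fold higher and 2 lower. Klri2, which pairs with Klre1, had 67 counts against 2 (log2 ratio 6.29, 4.39 to 9.37), and Klrb1b was higher by a log2 ratio of 2.07. Klri2, Klrb1b and others of the lectin list are among the genes that picked the receptor-bearing cells, so these values partly restate that choice. Klra22, of the Ly49 family, went the other way, at 115 CPM against 435 (log2 ratio -1.91, -2.59 to -1.30). Klrd1, which the rule used in both sets, differed by a log2 ratio of only 0.57. Tyrobp was at 3481 CPM against 105, a log2 ratio of 5.06 (4.65 to 5.50), and Fcer1g at 1616 against 236. Lower genes included Cd8b (1 count against 80), Cd8a (216 CPM against 806), the T cell factor Lef1 (log2 ratio -1.99) and Id3 (-2.73). Tbx21 (1.92) and Hopx (2.13), regulators of effector cells, were higher.

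Stromal genes also led the lower side. Dcn, Igfbp5, Chad, Ecrg4 and Fn1 were lower in the receptor-bearing cells, but 1 CD3-positive cell held 91.3% to 99.6% of each gene's counts in that set. Clu, Igfbp7 and Mgp were also lower, with 71.3%, 54.1% and 78.1% of their counts in 1 cell, and log2 ratios of -3.53, -4.10 and -2.89 without it. The stromal list took 0.351% of the summed UMIs of the CD3-positive cells and 0.0154% of those of the receptor-bearing cells.

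**Figure D3:**
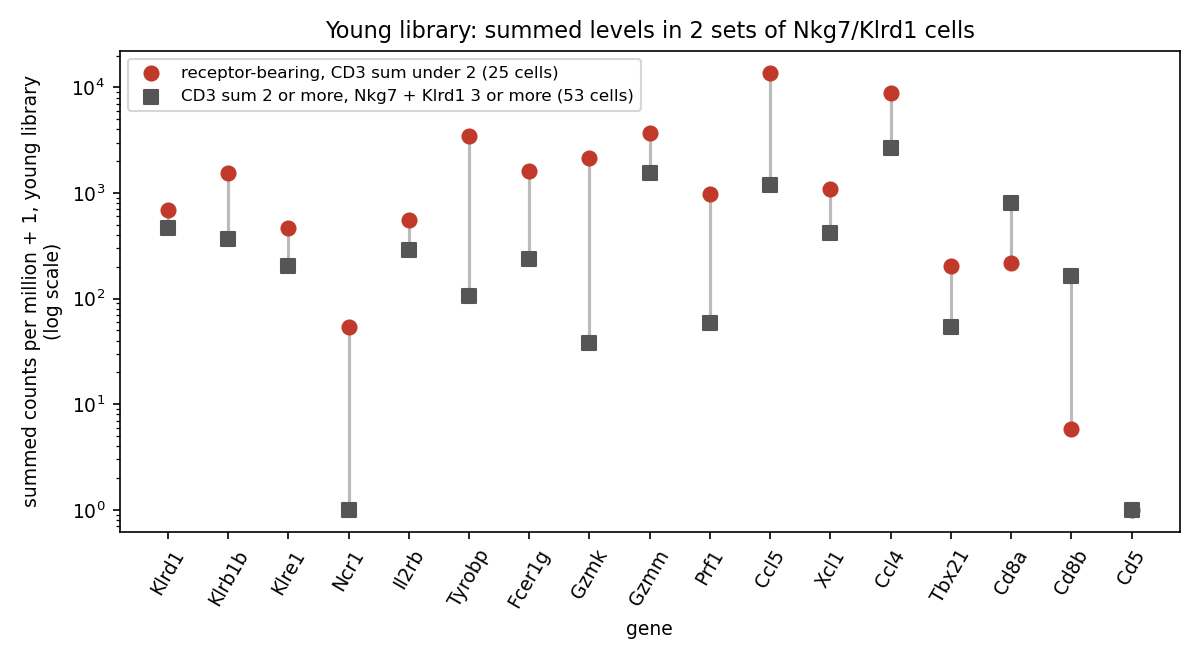
Summed CPM plus 1 (log scale) in the young library for receptor-bearing members (circles, 25 cells) and CD3-positive cells that also had an Nkg7 and Klrd1 sum of at least 3 (squares, 53 cells). Prf1, Gzmk, Tyrobp and Ccl5 show wide gaps, whereas Klrd1 lies close in both sets.

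By the definition of the sets, no cell outside the receptor-bearing set could hold more than 1 of the receptor and lineage genes, which include Klrd1, Klre1, Klrb1b, Ncr1 and Il2rb, so their counts there are a description. Klrd1, Klre1, Ncr1, Il2rb, Gzmk, Prf1 and Ccl5 had 0 counts in the azurophil-rich, Mcpt8l/Prg2-rich and remaining cells of both libraries. Klrb1b was an exception in the aged library, with 3, 7 and 4 counts in these sets against 0 in each of the young ones. Fcer1g and Tyrobp, which myeloid cells also use, were read in most of the granule-rich cells, Fcer1g in 21 of 22 aged and 20 of 21 young Mcpt8l/Prg2-rich cells.

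**Figure D4:**
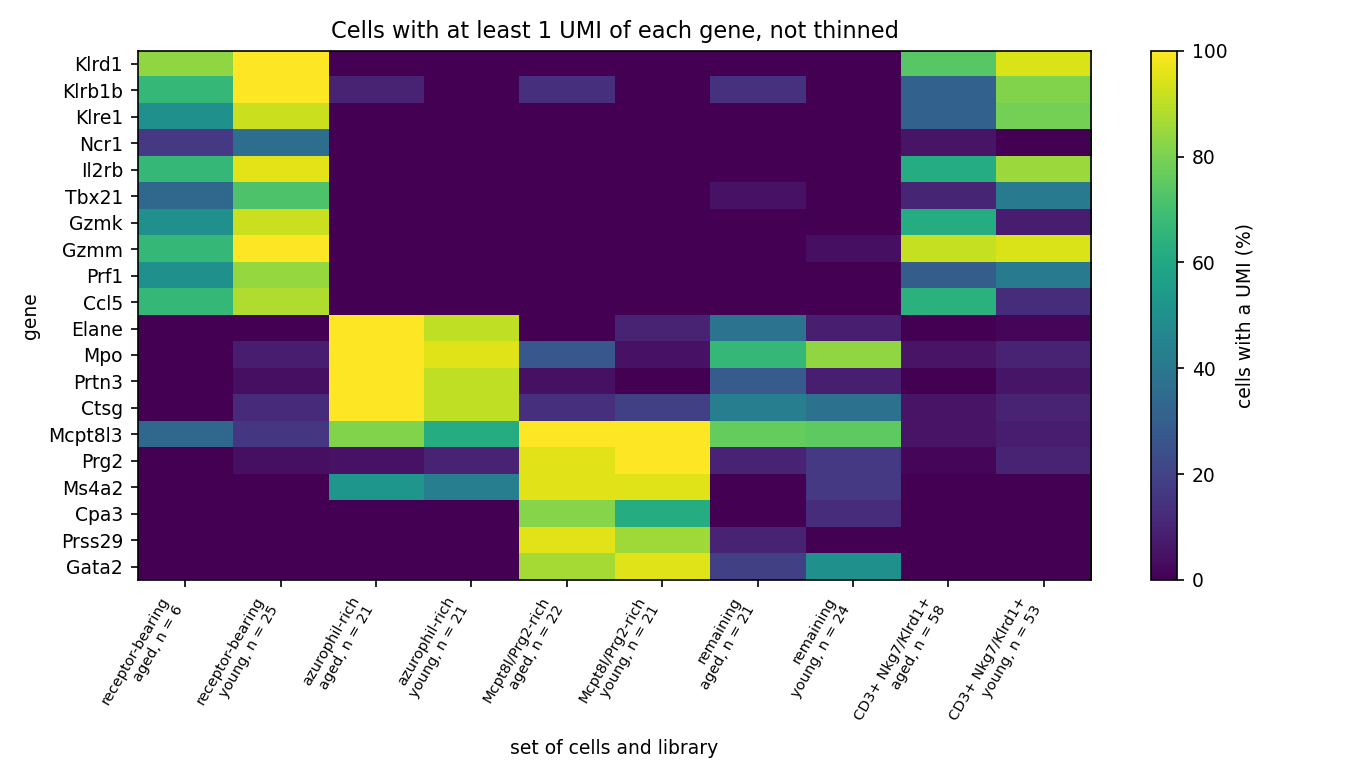
Share of cells with at least 1 UMI (color, 0 to 100%, not thinned) for 20 genes (rows) in each set and library (columns), with CD3-positive Nkg7/Klrd1 cells at the right. Klrd1, Gzmk and Prf1 are confined to the receptor-bearing and CD3-positive columns, Elane and Prtn3 are most often read in the azurophil-rich columns, and Ms4a2, Cpa3 and Prss29 in the Mcpt8l/Prg2-rich columns.

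The azurophil-rich cells carried primary granule proteases. Ctsg was read in 21 of 21 aged cells (26 to 1157 UMIs, median 606) and 19 of 21 young cells (0 to 784, median 354). Elane ran from 35 to 908 UMIs (median 408) in aged and 0 to 538 (median 249) in young cells, and Mpo from 49 to 491 (median 238) and 0 to 272 (median 134). Cebpe, a transcription factor of granulocyte maturation, was read in 17 of 21 cells of each library. The neutrophil list took a median of 3.52% (aged) and 3.10% (young) of their UMIs, but it shares Elane, Mpo and Defa5 with the set definition, so this level follows from the choice of cells. Of its 14 genes, 11 had a UMI in the aged and 12 in the young cells. Among late granule genes, Ltf had 0 counts in both libraries, whereas Camp was read in 10 of 21 aged and 14 of 21 young cells. Serglycin (Srgn), the proteoglycan that packs granule proteases, was read in every one of these cells in both libraries.

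The Mcpt8l/Prg2-rich cells carried IgE receptor and histamine genes that the set definition did not use. Ms4a2 was read in 21 of 22 aged and 20 of 21 young cells, Fcer1a in 19 and 19, Hdc in 19 and 19, and the transcription factor gene Gata2 in 19 and 20. Cpa3, the mast cell carboxypeptidase, was read in 18 and 13. Of the 10 mast cell and basophil genes found, 8 had a UMI in each library, and both tryptase genes, Tpsb2 and Tpsab1, were at 0. The list took a median of 0.811% (aged) and 0.800% (young) of UMIs here, against at most 0.0116% in each other set. Mcpt8l3 itself ranged from 35 to 2270 UMIs (median 1324.5) in aged and 53 to 2995 (median 1288) in young cells, with full overlap.

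By definition the remaining cells lay under 2% of UMIs for both granule gene sets and held at most 1 receptor gene. Granule genes were still read in them. Thinned to 1000 UMIs, Mcpt8l3 was read in 57.1% (aged) and 45.8% (young), against 1.22% and 0.806% of B cells. Mpo was read in 38.1% and 20.8%, against 0.355% and 1.60% of B cells. The counts that follow are not thinned. Mpo was read in 14 of 21 aged and 20 of 24 young cells, at medians of 9 and 12 UMIs, and Mcpt8l3 in 16 and 18, at medians of 16 and 27.5. Cell cycle genes took a median of 0.480% (aged) and 0.627% (young) of UMIs. Mki67 was read in 15 of 21 and 19 of 24, Kit, the stem cell factor receptor, in 6 and 17, and Myc in 15 and 21. In the receptor-bearing cells the cell cycle list took a median of 0.0375% in the young library but 0.409% in the aged, over 6 cells. The aged Mcpt8l/Prg2-rich cells were at 0.378%, so the wide gap to the remaining cells was seen in the young library only.

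Across all 161 members, 8 genes were most alike to the rule in being read more often in members than in other kept cells. These were Ifitm1, Sh2d5, Mcpt1l4, Mcpt8l3, the adaptor gene Hcst, Spn, Serpinb1a and Mcpt8l2. Ifitm1 was read in 94.4% of members and 23.3% of other kept cells, a difference of 71.1 points. These shares were not thinned, and the members were deeper than the other kept cells, and the part of depth in the difference was not tested. Sh2d5 was read in 70.8% against 3.06%, but in only 9.68% of receptor-bearing cells. Serpinb1a, an inhibitor of granule proteases, was read in 100% of azurophil-rich and 12.9% of receptor-bearing cells. Hcst and Ifitm1 were frequent in all 4 sets. The definition of the sets limited how far receptor genes could be shared across them, and the genes of the rule were left out of this ranking.

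Taking all members together, the serine protease genes Prss29 and Prss34 were higher in the aged library. Of 7175 genes with at least 20 summed counts, 3.50% were at least 2-fold higher in the aged library (251 genes) and 8.99% at least 2-fold lower (645). C-type lectin receptors had 1 of 14 higher and 11 lower (median log2 ratio -1.90, against -0.12 over all genes). Other NK lineage genes had 0 of 8 higher and 8 lower (median -2.60). Most genes of these 2 lists had 0 counts in each set outside the receptor-bearing cells. They could thus pass the count filter mainly through those cells, most of which were young. The direction of these 2 lists is therefore a description. Receptor adaptors and signalling genes had 0 of 17 higher and 10 lower, and cytotoxic granule genes 2 of 17 higher and 7 lower (median -0.27). Other activating and inhibitory receptors had 0 of 9 higher and 4 lower, and cytokine receptors 2 of 17 higher and 6 lower. Genes such as Prf1 and Gzmk also passed the filter only through the receptor-bearing cells, so the directions of these further lists are a description too. The adaptor list had 0 of 6 genes lower in the azurophil-rich, 2 of 9 in the Mcpt8l/Prg2-rich and 1 of 10 in the remaining cells, with 0, 0 and 2 higher. The number of receptor-bearing cells differed in the same direction (6 aged against 25 young). Those cells held all 322 aged and all 2873 young counts of Ccl5, and all 37 and 203 of Prf1. The part of cell number in these differences was not tested. Leaving those cells out, a choice made after seeing the data, gave a C-type lectin median of 0.12 and a granule median of 0.37, but the first follows from how the cells were picked.

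Among single genes lower in the aged members, Xcl1 had 7 counts against 228 (log2 ratio -4.65, -5.98 to -3.58), Ccl4 97 against 1850 (-3.88, -4.19 to -3.58) and Gzmm 98 against 771 (-2.60, -2.92 to -2.29). Gzmm had 0 counts in both granule-rich sets of each library and in the aged remaining cells. Receptor-bearing cells numbered 6 in the aged and 25 in the young library, and the part of their number in these ratios was not tested. Klrb1b had 34 against 323 (-2.87). Once receptor-bearing cells were left out, the young library had 0 counts and the aged level was higher by at least 2.50 (log2). The aged counts left were fewer than the minimum of 20 summed counts used to call a gene. Klrb1b also helped to decide which cells were left out, so this value is a description and no reversal is read from it. Mcpt1 had 265 against 1787 counts, of which 89.3% lay in 1 young cell, and without that cell its log2 ratio was 0.81. On the higher side, Dcn, Comp and Ereg had 98.0%, 99.3% and 81.3% of their aged counts in 1 cell. Without that cell their ratios were -1.38, -4.83 and 0.23, so their higher level rested on single cells.

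Prss29, a trypsin-like serine protease gene, was the gene furthest apart, and it lay in 1 set. In the Mcpt8l/Prg2-rich cells it ranged from 0 to 966 UMIs in the aged library (median 586.5, read in 21 of 22) and from 0 to 33 in the young (median 10, read in 18 of 21). The aged cells were the high ones, and 19 of 22 lay above the highest young cell. The summed level was 38239.7 CPM against 953, a log2 ratio of 5.33 (5.15 to 5.51), or 5.28 without the top cell. The related gene Prss34 ranged from 0 to 452 (median 20.5) and 0 to 50 (median 15), so the cells overlapped, with 8 of 22 aged cells above the young range. Its log2 ratio was 2.69 (2.53 to 2.85). In all other kept cells, Prss29 was at 1.93 CPM in the aged library and 0.448 in the young.

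Other genes of the Mcpt8l/Prg2-rich cells differed in both directions. Of 2890 genes measured, 5.88% were at least 2-fold higher in the aged library and 7.92% lower. Hp, haptoglobin, had 0 to 30 UMIs (median 3) against 0 to 4 (median 0), a log2 ratio of 2.57 (1.86 to 3.35), and the stress factor gene Ddit3 had a median of 5 against 0 (2.30, 1.67 to 2.97). Spp1, osteopontin, was at 386 CPM against 40.3 (3.26), with 44.7% of its counts in 1 cell. The chemokine receptor gene Ccr1 had 31 counts in 9 aged cells and 0 in the young, at least 9.54-fold higher. The granzyme gene Gzmbl2 (1.66) and the chymase gene Cma1 (6166 against 2178 CPM) were also higher.

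Lower in the aged Mcpt8l/Prg2-rich cells were Ccl3, the IgE receptor gene Fcer1a and Hdc. Ccl3 had 0 to 8 UMIs (median 0) against 0 to 40 (median 3), a log2 ratio of -3.48 (-4.27 to -2.78), and 6 young cells lay above every aged cell. Fcer1a was at 267 CPM against 719 (-1.43, -1.82 to -1.04) and Hdc at 440 against 1104 (-1.33). Cebpa, a granulocyte factor gene, was at 37.2 against 191 CPM (-2.36), and the integrin gene Itgb2 at 27.1 against 172 (-2.67). In the same cells Cpa3 (-0.05) and Gata2 (-0.69) were less than 2-fold apart, so the list was not uniform: of 7 mast cell and basophil genes measured, 1 was at least 2-fold higher and 2 lower. Cd79b had 0 aged and 31 young counts in these cells, which were read in 5 of 21 cells and lay to 51.6% in 1 of them. Its part in the other differences was not tested.

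**Figure D5:**
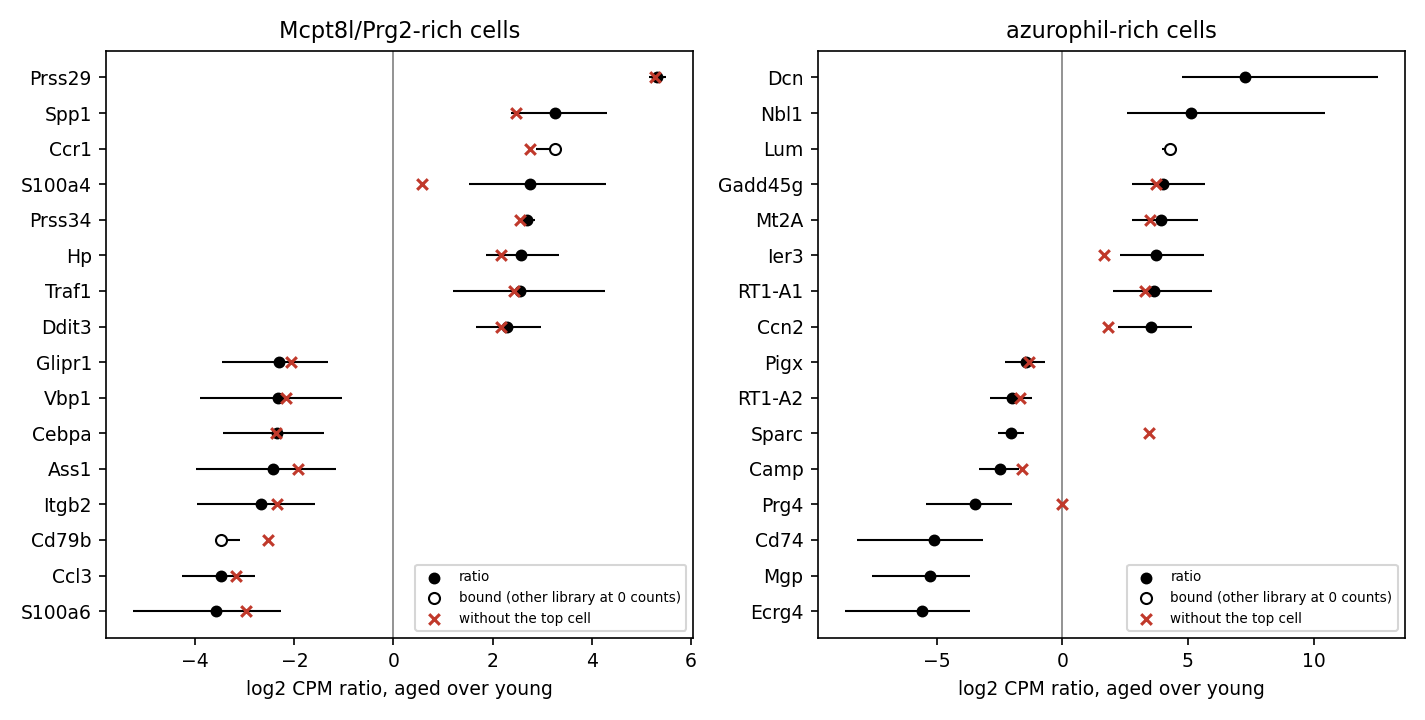
Log2 ratio of summed CPM, aged over young, for the 8 highest and 8 lowest named genes in Mcpt8l/Prg2-rich (left) and azurophil-rich (right) cells, with 95% counting intervals. Open circles are bounds where the other library had 0 counts, and crosses give the ratio without the cell holding most counts (none where too few counts were left). Prss29 stays at 5.28 without its top cell, whereas Sparc changes sign.

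In the azurophil-rich cells 6.43% of 3513 genes were at least 2-fold higher in the aged library and 3.39% lower. The list of early response genes had 7 of 23 measured genes higher and 1 lower (median 0.24), and growth arrest genes 4 of 8 higher and 0 lower (median 0.95, against 0.02 over all genes). Gadd45g, a growth arrest and DNA damage gene, had 0 to 28 UMIs (median 1) against 0 to 3 (median 0), a log2 ratio of 4.02 (2.76 to 5.68), and 4 aged cells lay above the young range. Junb, an AP-1 subunit, was at 367 against 82.4 CPM (2.15, 1.57 to 2.79), Zfp36 at 123 against 23.6 (2.39) and Nfkbia, the NF-kB inhibitor, at 398 against 124 (1.69). The metallothionein gene Mt2A had 120 counts against 6 (3.93, 2.76 to 5.40). Of the granule genes, Prtn3 was 2.00-fold higher, whereas Elane (0.40), Mpo (0.34) and Ctsg (0.32) were less than 2-fold apart.

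Several of the widest ratios in these cells came from single cells. Dcn had 198 of its 201 aged counts in 1 cell, and Lum had all 77 in 1 cell. Ecrg4, Mgp, Cd74, Prg4 and Sparc, lower in the aged library, had 94.2% to 100% of their young counts in 1 cell. Camp, a late granule gene, was lower with a log2 ratio of -2.49, and -1.59 without its top cell.

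The remaining cells had 3.77% of 5200 genes at least 2-fold higher in the aged library and 9.21% lower. Early response genes had 10 of 24 measured genes higher and 1 lower (median 0.74), and Gadd45g had 41 counts against 1, with 70.7% of the aged counts in 1 cell. Irf8, a monocyte and dendritic factor gene, had 116 counts in 7 aged cells against 16 in 8 young cells (3.83, 3.07 to 4.68). Ly86 had 54 counts in 6 aged cells and 0 in the young. Cma1, Cpa3, Ms4a2 and Mcpt1 were lower, but 90.5% to 99.8% of the young counts of each lay in 1 cell.

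The class I histocompatibility genes RT1-A1 and RT1-A2 differed in opposite directions. RT1-A1 was higher in the aged azurophil-rich (log2 ratio 3.63), Mcpt8l/Prg2-rich (1.88) and remaining (1.61) cells, and RT1-A2 was lower (-2.01, -1.65 and -1.18). In the other kept cells RT1-A1 was at 471 CPM (aged) and 144 (young) and RT1-A2 at 276 and 480.05, so the same directions were seen outside the members. The class I and peptide loading list as a whole had 3 of 12 measured genes at least 2-fold higher and 1 lower in the aged members, with a median log2 ratio of -0.09. RT1 genes are near-copies, so reads may be shared between them.

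Against cells gated as T cells (CD3 sum 2 or more, Nkg7 and Klrd1 sum under 3), 785 of 7646 genes (10.3%) were at least 2-fold higher in the aged members and 17.9% lower. In the young library 971 of 9466 (10.3%) were higher and 16.5% lower, with the genes of the rule left out. The 8 mast cell and basophil genes measured in each library passed the count filter through the members, so they could only come out higher and their ratios are not read. The largest ratios in the young library included Cma1 (1168 counts against 1), Mcpt8l3 (31204 against 38), Mcpt8l2 (13248 against 24) and Gzmk (445 against 1). Cma1 and Gzmk likewise passed the filter only through the members, so they could only come out higher. This ranking is therefore a description. Neither comparison group was clean. In the aged group of 267 cells, 80.9% had Cd3g, 52.4% Cd3e and 46.4% Cd79b, and the B lineage list took 0.305% of the summed UMIs against 0.121% for the T cell list. Of the 452 young cells 97.3% had Cd3g but only 9.07% had Cd3e, and 89.6% had Cd79b. B lineage genes were at least 2-fold lower in the members for 10 of 10 measured genes (aged) and 12 of 12 (young). The comparison therefore says little of T cells in either library.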

How the data were processed

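The authors deposited 1 gene-by-barcode table of UMI counts per library, made with Cell Ranger 6.1.1 per the submitters' processing notes. Which build and annotation were used is not given in the sources used here. The aged library held 47228750 UMIs in 8422 barcodes and the young 65051972 in 9914, over 25399 genes. The libraries shared 18 barcode sequences, of which 0 were members in the aged and 1 in the young library. Counts were summed over cells and scaled to a total of 1000000 (CPM). With 1 library per age, ratios carry exact 95% conditional intervals and shares Clopper-Pearson intervals, both for counting error only, and a gene was called on size alone (2-fold, at least 20 summed counts). A zero was set at 3 counts. No doublet caller was run. Named genes had at least 100 CPM in the higher library, at least 30 summed counts and an interval leaving out 0, and were the 12 largest in each direction (8 in the granule sets, 6 in the remaining cells, 10 against T or CD3-positive cells). Genes without a name, and those of mitochondria, ribosomes, haemoglobin and immunoglobulins, were not ranked, and any gene of the 28 lists could be named. Members and lists were chosen with earlier results of these data known, and the 4 sets after seeing the values. Alternatives used edgeR 4.0.16 (TMM) and DESeq2 1.42.0 (size factors) in R 4.3.3 for scaling only. The ratio code was tested on simulated data. Python 3.11.15, numpy 2.4.6 and scipy 1.17.1 were used.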

Additional observations from a re-analysis of the deposited data

Results flagged for a closer look

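Some barcodes outside the cell filter met the gene rule, 13 in the aged library and 11 in the young, and they enter none of the comparisons. Of these, 7 aged and 11 young barcodes had at least 2% of their UMIs in the azurophil genes, and 0 and 0 had 2 or more receptor genes.

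In 4 genes the ratio of aged to young was at least 2-fold in opposite directions in the azurophil-rich and Mcpt8l/Prg2-rich cells, with both counting intervals leaving out 0. The difference between the sets was not tested. Zfp36, an mRNA decay factor gene, had log2 ratios of 2.39 and -1.25. S100a6, a calcium-binding protein gene, had 2.03 and -3.57. Spr, sepiapterin reductase, had -1.15 and 1.47. The chemokine gene Ccl3 had 1.02 (109 against 41 counts) and -3.48 (18 against 186 counts), and without its top cell the azurophil-rich ratio was 0.54.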

How the results depend on the processing

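No paired analysis was possible because each age had 1 library. A stricter cell filter (1000 genes, 10% mitochondrial UMIs) gave member shares of 1.81% (aged) and 1.28% (young). In the young library the share was 0.809% with Lyz2 under 3 and 0.832% with an Nkg7 and Klrd1 sum of at least 5. At least 50 summed counts left 122 genes higher and 246 lower in the aged members, a C-type lectin median of -2.50 and 501 genes higher than in T cells of the aged library. With no count filter, 576 were higher and 1330 lower, and the lectin median was -1.21. Among alternatives chosen after seeing the data, the granule-rich sets alone gave 217 genes lower and a lectin median of -0.028, and leaving out receptor-bearing cells gave a lectin median of 0.12 and a granule median of 0.37. Klrb1b, with 0 young counts in both cases, was higher in the aged library by at least 2.50 (log2) without receptor-bearing cells and at least 1.46 in the granule-rich sets alone. Both Klrb1b values rest on fewer than 20 summed counts, and Klrb1b helped to pick the cells left out, so they are a description. Without the 10% of cells with most UMIs the ratios of Comp, Dcn and Mcpt1 were -3.30, -1.59 and 3.0, and by mean per-cell CPM that of Comp was -0.31. The erythroid list median was 0.035 with a sum of at least 2. The cause of these changes was not tested, apart from the genes and cells each setting removes. Of 375 values for 24 named genes, 313 stayed within the counting interval, 56 moved and 6 reversed. TMM and DESeq2 scaling moved the all-gene median from -0.12 to -0.01 and 0.00. Depth limits the receptors: Klrd1 had a median of 5 and Klre1 of 4 UMIs per young receptor-bearing cell.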

Other observations

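Cells with 3 or more receptor genes were also found outside the rule: 73 kept cells in the aged library and 80 in the young. Of these, 59 and 66 had a CD3 sum of 2 or more, and 14 and 11 had an Nkg7 and Klrd1 sum under 3 with a CD3 sum under 2. Cells rich in Mcpt8l3, Mcpt8l2 and Prg2 were rare outside the members: 6 aged and 4 young kept cells had at least 2% of their UMIs in these genes.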
